A study of Canis lupus familiaris with 12 samples.

Results

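Matrix metalloproteinases (MMPs) and their tissue inhibitors (TIMPs) were examined in Madin-Darby canine kidney (MDCK) cells, an epithelial line long kept in culture that came from the tubules of a dog kidney. The members were all probe sets whose platform annotation names a single gene among MMP1, MMP2, MMP7, MMP9, MMP13, MMP14, MMP15, TIMP1, TIMP2 and TIMP3, which gave 19 probe sets of 42924 and 10 genes of 15115. The genes were selected on the difference between the cultures in these same intensities, so their levels and differences are given as a description, without a test. Both groups were MDCK II tet-off cells kept in medium with G418 and harvested on day 8 from type I collagen gels that were digested with collagenase, the 2D group (6 arrays) as flat sheets and the 3D group (6 arrays) as multicellular cysts. The 2D culture was the control condition. Each array carried RNA pooled from 4 samples, so the spread between arrays leaves out much of the spread between single cultures, and nothing in the labels says how the pools were drawn. In such bulk RNA, fewer cells with a transcript and less transcript per cell cannot be told apart.

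MMPs are zinc-dependent endopeptidases that are made as inactive proenzymes and, once activated, cut collagens and other proteins of the extracellular matrix. Collagenases cut intact fibrillar collagen, gelatinases degrade its denatured form, and membrane-type MMPs act at the cell surface and can activate other MMPs. TIMPs bind the active site and block it. In kidney epithelium these enzymes are known for their part in remodelling the basement membrane and the surrounding collagen when tubules and cysts form.

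Values are log2(intensity + 1) throughout, and differences are 3D minus 2D on that scale. A control level was set on each array as the 95th percentile of 59 bacterial and tag control probe sets, and it averaged 5.71. Its mean was 5.76 on the 2D arrays and 5.66 on the 3D arrays. Median intensity lay between 90.6 and 93.8 on the 2D arrays and reached 90.8 at most on the 3D arrays. All 9 measured markers of kidney epithelium lay above the control level on all 12 arrays. So did 5 of 7 leukocyte, 3 of 8 stromal and 3 of 4 endothelial markers. Lying above that level thus does not by itself show that a gene is expressed. The signal ratio of 5-prime to 3-prime control probe sets for actin and GAPDH, a sign of RNA quality, differed with culture. Its mean log2 was -0.91 ± 0.14 in 2D and -0.54 ± 0.17 in 3D (SD, n = 6 arrays each, exact two-sided permutation p = 0.00866). The difference was 0.59 for the actin pairs (exact permutation p = 0.00866) and 0.15 for the GAPDH pairs (exact permutation p = 0.0260), so most of it came from actin. The mean over both genes is the ratio used below. The 3D replicate 2 stood apart from its group in this ratio, at -0.88. Its part in the results below was not tested, and values without that array, or with the ratio as a covariate in the fit, are given where they differ most. Since the ratio differed with culture, the covariate widens the SE, and the parts of ratio and culture cannot be told apart.

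Among the members, the collagenase MMP13 and the inhibitors TIMP1 and TIMP3 were several-fold higher in cysts than in flat sheets. The gelatinase MMP9 was far higher on 1 of its 3 probe sets, from a 2D level near the control level. MMP1, MMP2, MMP7, MMP14, MMP15 and TIMP2 differed by less than 0.3 on the log2 scale in either direction. In a limma fit over the whole table, 9 of the 19 probe sets passed an adjusted p of 0.05 as higher in 3D, where 16.7% of all probe sets did. Another 3 passed as lower, where 22.0% of all probe sets did (38.7% in either direction), and 7 did not pass. The 6 and 6 values did not overlap for 10 of the 19 probe sets, 8 of them higher and 2 lower in 3D, against 18.7% of all probe sets, 10.1% higher and 8.62% lower. The median difference was 0.04 over the members and -0.06 over all probe sets, and 8 members and 1.45% of all probe sets were more than 2-fold higher in 3D. Because the choice of genes used this contrast, nothing is read from these counts.

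**Figure D1:**
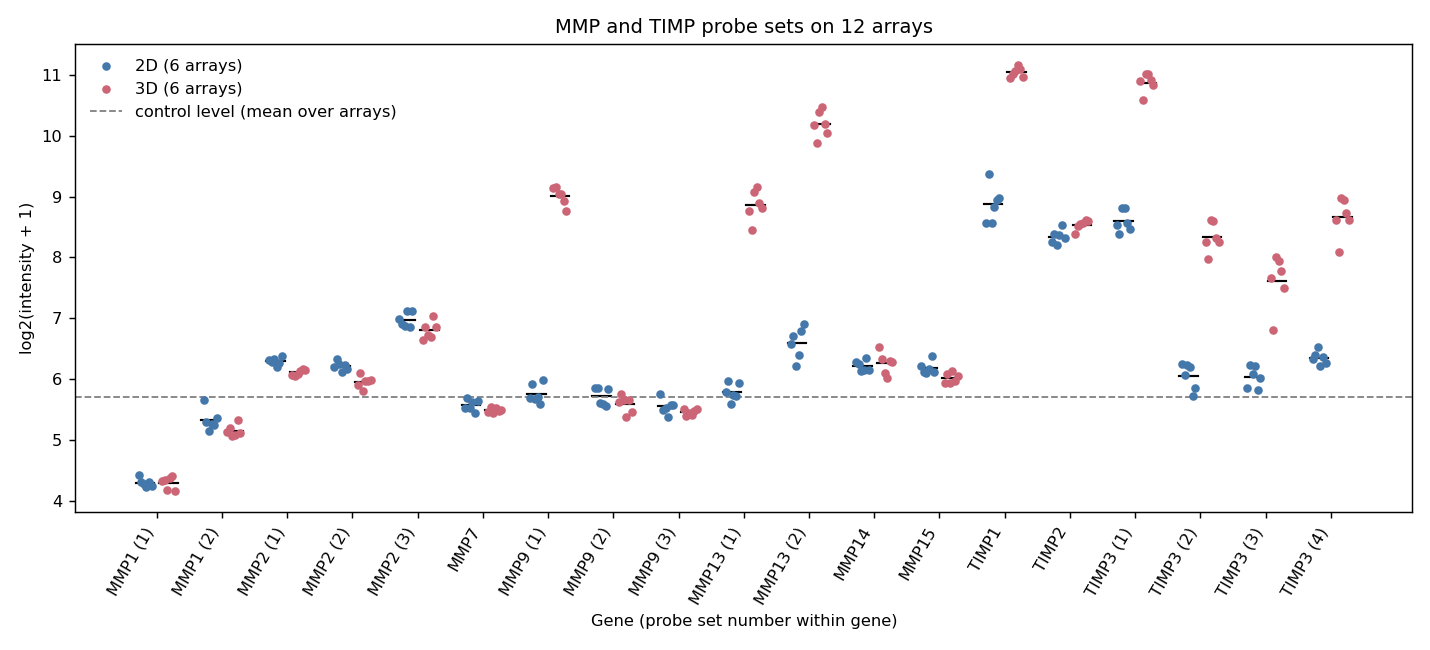
Values of the 19 probe sets on each array, numbered within a gene in order of their identifiers, as log2(intensity + 1), with 2D arrays in blue, 3D arrays in red, black bars for group means (6 arrays each) and a dashed line at the mean control level of 5.71. MMP13, TIMP1, TIMP3 and 1 probe set of MMP9 stand clear of the 2D values, while MMP1 and MMP7 lie below the control level in both cultures.

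MMP13, a collagenase that cuts intact fibrillar collagens, had the largest difference of the members. Of its 2 probe sets, the brighter (MMP13 (2) in the plots, where probe sets of a gene are numbered in order of their identifiers) gave 2D values with a lowest, median and highest of 6.21, 6.65 and 6.91, and 3D values of 9.87, 10.18 and 10.48. Every 3D array was thus higher than every 2D array, with a gap of 2.96 between the groups. The mean went from 6.60 ± 0.26 to 10.19 ± 0.22 (SD, n = 6 each), a difference of 3.58 (SE 0.12) or 12-fold, and on the linear scale from an intensity of 97.6 ± 17.2 to 1178 ± 180. The other probe set, MMP13 (1), ran from 5.60 to 5.97 in 2D and from 8.46 to 9.15 in 3D, a difference of 3.06 (SE 0.10). It exceeded the control level on 4 of 6 arrays in 2D and on all 6 in 3D, so its 2D level is close to the limit of what the array resolves.

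MMP1, the interstitial collagenase, had no level above the control probe sets in either culture. Its values ran from 4.24 to 4.43 in 2D and from 4.17 to 4.41 in 3D on 1 probe set, and from 5.16 to 5.67 and from 5.06 to 5.33 on the other. The groups overlapped on both. All 12 arrays lay below the control level on both probe sets, so no fold is given.

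MMP9, the gelatinase associated with leukocytes and with invading epithelium, was represented by 3 probe sets that differed from each other. On MMP9 (1) the 2D values had a lowest, median and highest of 5.59, 5.70 and 5.98, at or near the control level, which 3 of the 6 arrays exceeded. In 3D they were 8.77, 9.04 and 9.15. The groups were 2.78 apart at their closest, and the mean difference was 3.24 (SE 0.08), with means of 5.77 ± 0.16 and 9.01 ± 0.14 (SD, n = 6 each). The 2D mean lay at the mean control level of the 2D arrays, 5.76, so no fold is given. The other probe sets, which the platform annotation ties to another sequence accession of the same gene, stayed near the control level in both cultures. MMP9 (2) ran from 5.57 to 5.85 in 2D and from 5.38 to 5.76 in 3D (difference -0.13, SE 0.07). MMP9 (3) ran from 5.38 to 5.77 and from 5.39 to 5.52 (difference -0.10, SE 0.06). Thus 1 of 3 probe sets carried the whole of the MMP9 difference, and why they disagree was not tested.

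Markers of leukocytes, a cell type known to make MMP9, were looked at beside it. Of 7 measured markers, CD14 rose (difference 0.43, SE 0.06, limma adjusted p = 3.85e-05), PTPRC, ITGAM and CD3E fell, and 3 did not pass. Over all genes, taken with 1 probe set each, 19.8% rose and 22.9% fell. LYZ lay below the control level on all arrays. The summed intensity of the list ran from 577 to 632 in 2D and from 553 to 638 in 3D. The labels name MDCK cells and no other cell type, and the source of these marker signals was not tested.

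MMP2, the gelatinase often made by stromal cells, was slightly lower in 3D. On MMP2 (1) the 2D arrays ran from 6.20 to 6.39 with a median of 6.30, and the 3D arrays from 6.05 to 6.17 with a median of 6.12. The groups did not overlap, but the gap was only 0.02. The difference was -0.19 (SE 0.05) there, -0.27 (SE 0.05) on the second probe set and -0.17 (SE 0.07) on the third, whose groups overlapped. All 3 probe sets lay above the control level on all 12 arrays. That level was itself lower in 3D (mean 5.66) than in 2D (5.76), and its part in the MMP2 difference was not tested. Of 8 stromal markers, all of them measured, COL1A1 and DCN fell (limma adjusted p = 0.0197 and 0.00130) and the other 6 did not pass. Over all genes, taken with 1 probe set each, 22.9% fell. COL1A1 exceeded the control level on 6 of 12 arrays and DCN on 3, so both are dim. The call of COL1A1 ended with quantile normalization and when the RNA ratio was added to the fit. The summed intensity of that list ran from 486 to 569 in 2D and from 460 to 506 in 3D. As the labels name MDCK cells alone, the list is given as a description, and the source of its signals was not tested.

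MMP7, matrilysin, an epithelial protease without the domain that other MMPs use to bind collagen, lay below the control level on all 12 arrays. Its values ran from 5.44 to 5.69 in 2D and from 5.45 to 5.54 in 3D.

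The membrane-type enzymes MMP14 and MMP15 are anchored in the plasma membrane, and MMP14 activates the proenzyme of MMP2 together with TIMP2. MMP14 had a lowest, median and highest of 6.13, 6.20 and 6.34 in 2D and of 6.01, 6.29 and 6.54 in 3D. The 3D range enclosed the 2D range, and the difference was 0.04 (SE 0.08), which was -0.01 without 3D replicate 1. MMP15 ran from 6.11 to 6.38 in 2D and from 5.94 to 6.14 in 3D, where 1 of the 3D arrays lay above the lowest 2D arrays, with a difference of -0.16 (SE 0.06). When the RNA ratio was added to the fit, that difference was -0.05 (SE 0.09). The control level averaged 5.76 in 2D and 5.66 in 3D, and its part in the MMP15 difference was not tested.

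TIMP1, a secreted inhibitor of most soluble MMPs that binds the proenzyme of MMP9, was higher in all 3D arrays. Its 2D values had a lowest, median and highest of 8.56, 8.88 and 9.37, and its 3D values of 10.95, 11.03 and 11.15. The 3D arrays lay close together (SD 0.08), while the 2D arrays were spread more widely (SD 0.30), and the groups were 1.57 apart. The difference was 2.16 (SE 0.11), or 4.48-fold.

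TIMP2, the inhibitor that takes part in the activation of MMP2, was nearly level. It ran from 8.21 to 8.53 in 2D and from 8.39 to 8.61 in 3D. The groups overlapped, and the difference of 0.20 (SE 0.06) was 0.10 (SE 0.06) after quantile normalization.

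TIMP3, the inhibitor held in the extracellular matrix that also blocks proteases of the ADAM family, was higher in 3D on all 4 of its probe sets. On the brightest, TIMP3 (1), the 2D values had a lowest, median and highest of 8.38, 8.55 and 8.82, and the 3D values of 10.58, 10.90 and 11.01. The groups were 1.76 apart, and the difference was 2.27 (SE 0.09), or 4.83-fold. TIMP3 (2) gave a difference of 2.28 (SE 0.11) and TIMP3 (4) of 2.31 (SE 0.12). TIMP3 (2) exceeded the control level on 4 of 6 arrays in 2D and on all 6 in 3D. TIMP3 (3) gave 1.57 (SE 0.16), with 3D values from 6.81 to 8.01. It was the most variable member in 3D (SD 0.44), and in a fit that includes the RNA ratio its difference was 1.04 (SE 0.20).

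**Figure D2:**
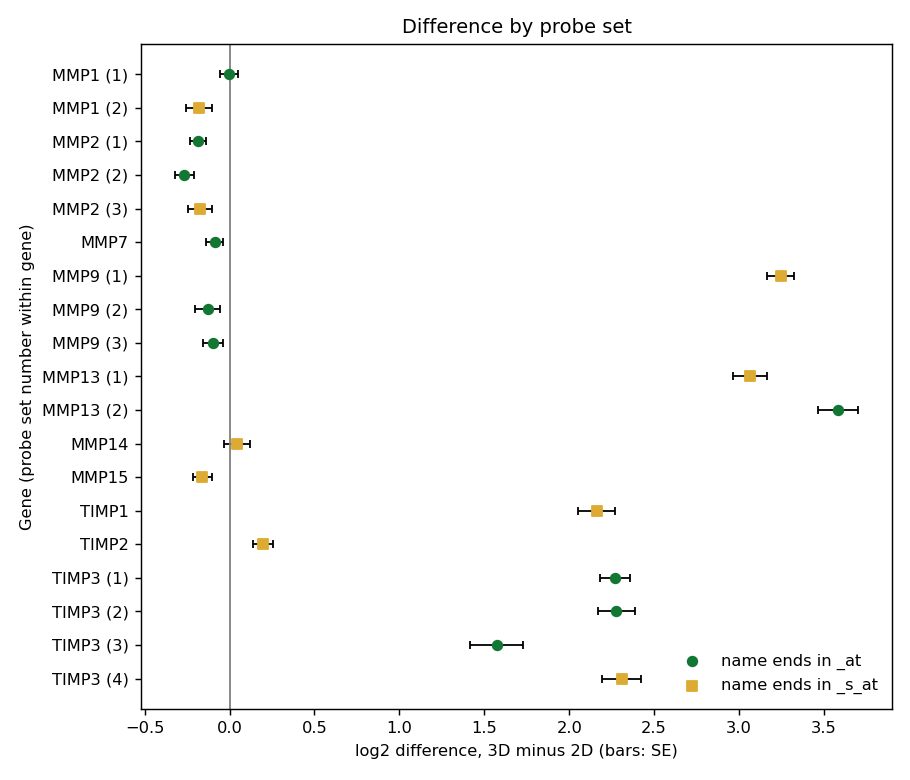
Log2 difference, 3D minus 2D, of each of the 19 probe sets, with bars of 1 SE (n = 6 arrays each). Squares mark probe sets whose name ends in _s_at, which can hybridise with several related transcripts. The 2 MMP13 and 4 TIMP3 probe sets lie on the same side, and the 3 MMP9 probe sets do not.

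The RNA ratio was set beside the members with large differences. On 3D replicate 2, both MMP13 probe sets and all 4 TIMP3 probe sets had their lowest 3D value (9.87 and 8.46 for MMP13, and 10.58, 7.98, 6.81 and 8.09 for TIMP3). MMP9 had its highest value there, at 9.15. TIMP1, at 11.01, lay within the range of the other 3D arrays. Without that array the differences were 3.65 for the brighter MMP13 probe set, 3.22 for MMP9, 2.17 for TIMP1 and 2.33 for the brightest TIMP3 probe set. With the ratio as a covariate they were 3.52 (SE 0.19), 3.30 (SE 0.13), 2.21 (SE 0.18) and 2.10 (SE 0.13). The differences of these 4 probe sets thus moved by less than 0.2 on the log2 scale. The dimmer probe sets moved more with the covariate, to 2.82 (SE 0.14) for MMP13 (1) and to 1.89 (SE 0.13), 1.04 (SE 0.20) and 1.88 (SE 0.13) for TIMP3 (2), (3) and (4).

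**Figure D3:**
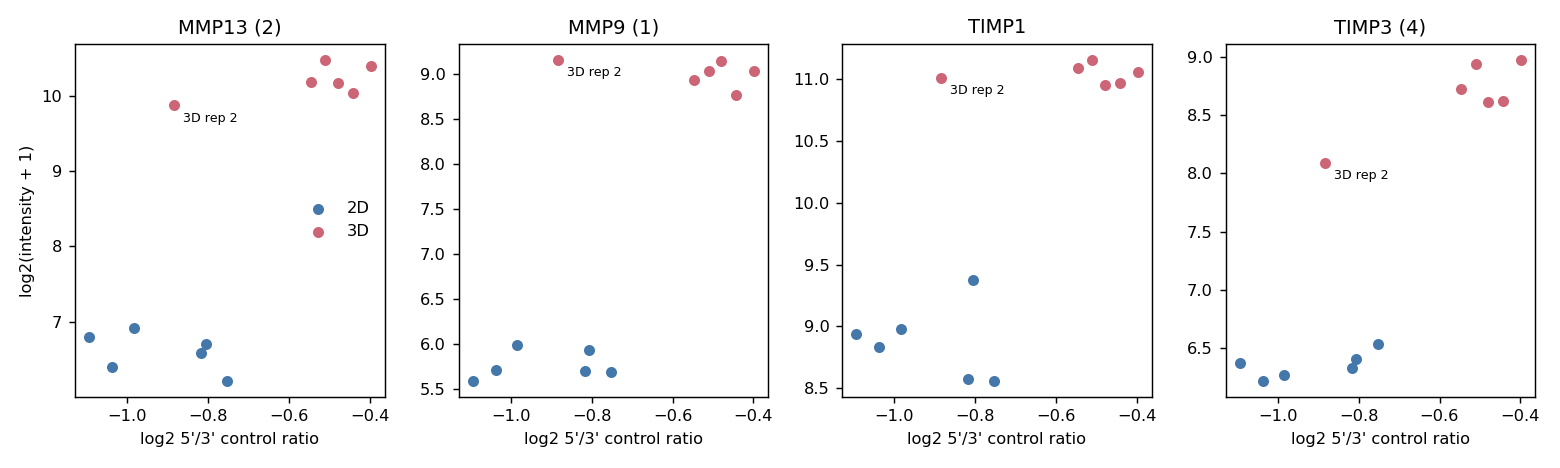
Value of MMP13, MMP9, TIMP1 and TIMP3 (1 probe set each, log2(intensity + 1)) against the log2 ratio of 5-prime to 3-prime control signal, for 6 2D arrays in blue and 6 3D arrays in red. The 3D replicate 2 has a ratio of -0.88, inside the range of the 2D arrays, and its 4 values lie with those of the other 3D arrays, lowest for MMP13 and TIMP3.

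Pairs of members were also compared within each culture, which the choice of genes did not use. There were 6 pairs, taken from known biology, and 12 relations in all, each over 6 arrays. Each gene was taken by its brightest probe set. Among the 3D arrays, arrays with more MMP13 signal had more TIMP3 signal (Pearson r = 0.94, exact permutation p = 0.00833, adjusted p = 0.10 over the 12 relations; Spearman rho = 0.94, exact permutation p = 0.0167, adjusted p = 0.20). Without the 2 arrays farthest from the median of MMP13, r was 0.998 over the 4 that were left. Among the 2D arrays the same pair had r = -0.83 (exact permutation p = 0.0611, adjusted p = 0.30; Spearman rho = -0.71, exact permutation p = 0.136, adjusted p = 0.54). None of the 12 relations passed the adjustment as fitted. After centring each array on its median the MMP13 and TIMP3 relation in 3D passed (adjusted exact permutation p = 0.0333), and after quantile normalization it did not. With centring r stayed at 0.94, and exact p over 6 arrays moves in steps from 0.00278 upward. Both genes were lowest on 3D replicate 2, where the upper quartile of intensity was 338. They were highest on 3D replicates 3 and 4, where it was 366 and 367. The part of such array-wide differences in the relation was not tested. MMP2 with TIMP2 in 3D had r = 0.68 (exact permutation p = 0.075, adjusted p = 0.30), and r was 0.02 over the 4 arrays left without the 2 farthest, so that relation rests on those arrays. Values over 4 arrays moved either way in other pairs too, from 0.05 to 0.98 for MMP2 with MMP14 in 3D and from 0.60 to -0.63 for MMP9 with TIMP1 in 2D.

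MMP13 belongs to a cluster of MMP genes that lie side by side in the dog genome. In the RefSeq gene order of assembly UU_Cfam_GSD_1.0, used here for order alone, the protein-coding genes run DCUN1D5, MMP13, MMP12, MMP3, MMP1, LOC102154292, MMP8, MMP27, MMP20, MMP7 and TMEM123. MMP13 was far higher in 3D, whereas the other measured MMPs of the cluster were at or below the control level on most or all arrays. MMP8 exceeded it on 4 of 12 arrays, and MMP3, MMP1, MMP27, MMP20 and MMP7 on none. Of these MMP20 alone passed, as lower (limma adjusted p = 0.00609), from values below the control level. The flanking genes rose a little, DCUN1D5 by 0.48 (SE 0.05, limma adjusted p = 2.15e-06) and TMEM123 by 0.20 (SE 0.04, limma adjusted p = 0.00138). MMP12 and LOC102154292 were not analysed here.

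**Figure D4:**
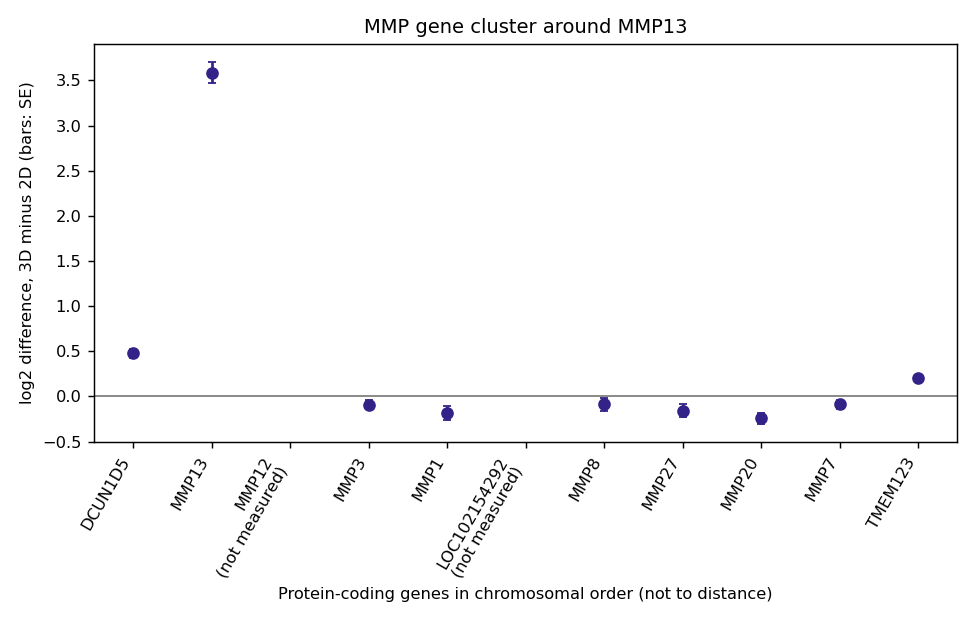
Log2 difference, 3D minus 2D, with bars of 1 SE (n = 6 arrays each), of protein-coding genes in chromosomal order around MMP13, 1 probe set per gene. MMP13 stands at 3.58, and the flanking genes DCUN1D5 and TMEM123 at 0.48 and 0.20. The other measured MMP genes lie from -0.24 (MMP20) to -0.09 (MMP7), at or below the control level on most or all arrays.

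The remaining MMP and TIMP genes were taken as a list, which holds what was left after the members were chosen on this contrast. Of 17 listed, 13 were measured, of which 2 rose, 4 fell and 7 did not pass, with a median difference of -0.10. A gene that the annotation names MMP23 was not matched to the listed MMP23B and is not counted. Over all genes, taken with 1 probe set each, 19.8% rose and 22.9% fell, and the median was -0.05. Nothing is read from the counts of this list or those below, which were chosen with earlier results of these data known. MMP19, a broadly expressed secreted MMP, rose by 0.59 (SE 0.05, limma adjusted p = 6.28e-08), from 5.71 ± 0.05 to 6.30 ± 0.08 (SD, n = 6 each), and its groups did not overlap. It exceeded the control level on 1 of 6 arrays in 2D and on all 6 in 3D. MMP16, a membrane-type MMP, fell by 0.28 (SE 0.08, limma adjusted p = 0.00984). MMP26, a small MMP made by epithelial cells, fell by 0.25 (SE 0.08, limma adjusted p = 0.0246), and exceeded the control level on 3 arrays in 2D and on 1 in 3D. MMP20, an MMP of tooth enamel, passed as lower (limma adjusted p = 0.00609) but lay below the control level on all 12 arrays, as did 4 others of the list, so no fold is given. Across the whole array, 11819 probe sets had a mean no higher than the control level, and 1947 of them fell while 417 rose. The calls of MMP16, MMP20 and MMP26 ended when the RNA ratio was added to the fit (limma adjusted p = 0.439, 0.552 and 0.151). With it the difference was -0.15 (SE 0.12) for MMP16 and -0.09 (SE 0.09) for MMP20 (-0.24 without it). For MMP26 it was -0.30 (SE 0.14), no smaller than before but with a wider SE. The call of MMP26 also ended without 2D replicate 1 (limma adjusted p = 0.0588), 2D replicate 2 (0.0566) or 3D replicate 4 (0.0620), and after quantile normalization (0.0783).

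Genes that activate pro-MMPs include those of the plasminogen system, whose protease plasmin cuts several proenzymes, and the proprotein convertases. Of 14 listed, 13 were measured, of which 5 rose, 1 fell and 7 did not pass, with a median difference of 0.01. Over all genes 19.8% rose and 22.9% fell. PLAT, tissue plasminogen activator, lay below the control level on all 2D arrays at 5.53 ± 0.04 and above it on all 3D arrays at 6.91 ± 0.19 (SD, n = 6 each), at least 2.22-fold higher (limma adjusted p = 5.95e-10). S100A10 and ANXA2, which together form a surface receptor for plasminogen, rose by 0.75 (SE 0.05, limma adjusted p = 3.29e-09) and 0.57 (SE 0.05, limma adjusted p = 1.18e-07). PLAU, urokinase, rose by 0.30 (SE 0.08, limma adjusted p = 0.00996), but its difference was 0.04 (limma adjusted p = 0.853) when the RNA ratio was added to the fit. PLG, plasminogen itself, had a difference of -0.14 (SE 0.06, limma adjusted p = 0.0700) and its receptor PLGRKT of -0.02 (SE 0.05, limma adjusted p = 0.822), both named after their values were seen. PCSK7, a proprotein convertase named because it alone fell, had a difference of -0.15 (SE 0.05, limma adjusted p = 0.0386). Its call ended without any 1 of 9 arrays, 2D replicates 1, 3, 4 and 5 and 3D replicates 1, 2, 4, 5 and 6. It also ended with the covariate, with median centring and with the mean over a gene's probe sets. PCSK5, another convertase, rose by 0.26 (SE 0.07, limma adjusted p = 0.00597), named after its value was seen. Of the 6 probe sets of PCSK5, 3 rose and 2 fell, and its call ended with the mean over probe sets. FURIN, the convertase that activates membrane-type MMPs, had a difference of -0.02 (SE 0.06, limma adjusted p = 0.763), named after its value was seen.

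Of 12 listed inhibitors and clearance genes outside the TIMP family, 10 were measured, of which 3 rose, 0 fell and 7 did not pass, with a median difference of 0.04. The shares over all genes were 19.8% raised and 22.9% lowered. At an unadjusted limma p under 0.05 the counts were also 3 and 0. SERPINE2, an inhibitor of plasminogen activators and plasmin, rose from 7.96 ± 0.55 to 11.37 ± 0.11 (SD, n = 6 each), a difference of 3.40 (SE 0.19, limma adjusted p = 8.10e-10) seen on all 3 of its probe sets. LRP1, the receptor that takes up protease and inhibitor complexes, rose by 0.26 (SE 0.07, limma adjusted p = 0.00587), on 2 of its 4 probe sets. THBS1, thrombospondin, rose by 0.18 (SE 0.07, limma adjusted p = 0.0411), and its call ended with array weights, with the covariate and without any 1 of 7 arrays (2D replicates 2, 5 and 6 and 3D replicates 1, 2, 3 and 4; limma adjusted p from 0.0527 to 0.0902).

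Of 16 cell-surface partners and inducers of MMPs, all listed and measured, 10 rose, 3 fell and 3 did not pass, with a median difference of 0.22. Among all genes 19.8% rose and 22.9% fell. When the RNA ratio was added to the fit, 6 rose. CD44, the hyaluronan receptor that can dock MMP9 at the cell surface, rose by 1.48 (SE 0.07, limma adjusted p = 9.94e-11) on all 3 of its probe sets, and its groups did not overlap. ITGA2, a subunit of a collagen receptor, rose by 0.79 (SE 0.06, limma adjusted p = 6.26e-08). ITGAV rose by 0.74 (SE 0.08, limma adjusted p = 1.28e-06), but of its 5 probe sets 2 rose and 2 fell. ITGB3 rose by 0.67 (SE 0.11, limma adjusted p = 0.000257) and did not pass with the covariate (0.36, limma adjusted p = 0.145). BSG, known as an inducer of MMPs, was among the genes that fell (-0.23, SE 0.04, limma adjusted p = 0.000582), with CD82 and LCN2, all 3 named after their values were seen. The call of LCN2 (-0.12, SE 0.05, limma adjusted p = 0.0484) ended under 14 of 21 alternatives, among them the covariate and leaving out any 1 of 8 arrays (replicates 1, 2, 3 and 4 of 2D, or 1, 3, 4 and 6 of 3D).

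Of 19 listed transcription factors known to act on MMP promoters, 16 were measured, of which 6 rose, 0 fell and 10 did not pass, with a median difference of 0.14. Across all genes 19.8% rose and 22.9% fell. At an unadjusted limma p under 0.05, 8 rose and 0 fell. Of the ETS family, ETV1 rose by 1.85 (SE 0.08, limma adjusted p = 4.18e-11) and ETV4 by 0.83 (SE 0.06, limma adjusted p = 2.54e-08). ETV5 rose by 0.55 (SE 0.05, limma adjusted p = 2.47e-07), while ETS2 (0.18, SE 0.07) did not pass. Of the AP-1 family, JUNB rose by 0.98 (SE 0.16, limma adjusted p = 0.000212) and FOSL1 by 0.60 (SE 0.08, limma adjusted p = 1.93e-05). FOS (-0.10, SE 0.22), JUN (-0.25, SE 0.19), FOSB (0.09, SE 0.05) and FOSL2 (0.14, SE 0.09) did not pass. ETV5, ETS2, FOS, JUN, FOSB and FOSL2 are named after their values were seen. JUNB did not pass when the RNA ratio was added to the fit (0.64, limma adjusted p = 0.0924).

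Matrix proteins that MMPs cut were measured for 22 of 25 listed genes, of which 7 rose, 2 fell and 13 did not pass, with a median difference of -0.07. The shares over all genes were 19.8% raised and 22.9% lowered. When the RNA ratio was added to the fit, 3 rose. LAMA3, a laminin chain of epithelial basement membranes, rose by 1.88 (SE 0.07, limma adjusted p = 1.98e-11), and FN1, fibronectin, by 1.23 (SE 0.07, limma adjusted p = 2.36e-09). LAMC1 rose by 0.78 (SE 0.12, limma adjusted p = 6.15e-05) and did not pass with the covariate (0.42, limma adjusted p = 0.0661). COL5A1, a chain of fibrillar type V collagen, fell by 0.52 (SE 0.08, limma adjusted p = 0.000130). COL5A2, another chain of that collagen named after its value was seen, rose by 0.32 (SE 0.08, limma adjusted p = 0.00529) on its 2 probe sets. The other gene that fell was COL1A1, at 5.83 ± 0.14 and 5.62 ± 0.10 (SD, n = 6 each), above the control level on 5 arrays in 2D and on 1 in 3D. Its call ended with quantile normalization and with the covariate. The count of genes that fell was 4 without 2D replicate 3, 2D replicate 5 or 3D replicate 2.

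**Figure D5:**
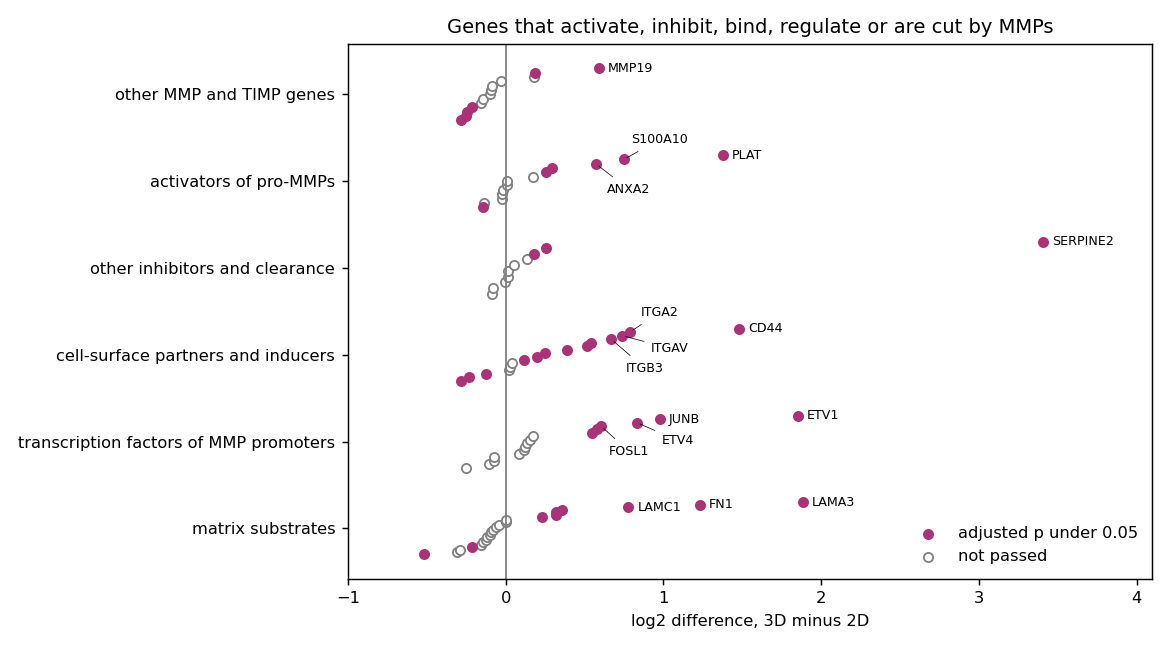
Log2 difference, 3D minus 2D (n = 6 arrays each), of each measured gene in 6 lists, 1 probe set per gene, with filled points for a limma adjusted p under 0.05. Most points lie within 0.5 of 0, and SERPINE2, LAMA3, ETV1, CD44, PLAT and FN1 lie above 1.

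Genes whose profile over the 12 arrays was most like that of the leading members were found by root mean square distance between profiles centred on their own mean. The nearest to MMP13 were ANKRD1 (distance 0.24), S100A2 (0.26) and IL13RA2 (0.29). The nearest to MMP9 on its responsive probe set were the class II antigen gene that the annotation names HLA-DRB1 (0.19), ANKRD1 (0.20) and the serine protease gene PRSS23 (0.25). The nearest to TIMP3 were the chemokine receptor gene ACKR3 (0.17), CMPK2 (0.17) and the chemokine gene CCL20 (0.19). Each of these distances is in log2 units and mostly reflects a difference between cultures of similar size, such as 3.33 for ANKRD1, 3.24 for HLA-DRB1 and 2.39 for ACKR3.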

How the data were processed

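The deposited values are linear intensities of one-colour Affymetrix dog arrays, 1 for each probe set on each of the 12 arrays. The submitters' processing notes name GCRMA and give no version of it. Other steps of the authors' processing are not stated there. Of 43035 probe sets, 111 Affymetrix controls were left out of the tests. No filter or further normalization was applied, and log2(intensity + 1) understates the change of dim genes. Precision is limited by the number of arrays.

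Genes were named from the platform annotation where it gave 1 symbol (29254 probe sets; 439 named several and 13231 none). RefSeq gene IDs matched 27680 of these and all 19 member probe sets. Where a gene stood for a list, its probe set with the highest mean was used. Probe sets ending in _s_at can measure several related transcripts.

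Culture was the only term of the model, for which limma 3.58.1 (lmFit, then eBayes; R 4.3.3) gave two-sided Benjamini-Hochberg adjusted p-values over all 42924 probe sets at 0.05. Exact permutation tests used scipy 1.17.1. The members and lists were chosen with earlier results of these data known. Named genes were all members, up to 4 genes of each list with the largest difference among those that passed, and the 3 genes most like each of the 3 leading members, with exceptions marked in the text. Protein and promoter sequences were not used here.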

Additional observations from a re-analysis of the deposited data

Results flagged for a closer look

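In 40 groups of 6 values (both cultures of each member probe set, and of the RNA control ratio), the highest or lowest array was compared with the others by the size of its gap over the group's range. Chance alone flags about 5% of such groups. The ratio of 5-prime to 3-prime control signal of 3D replicate 2, at -0.884, lay below the other 3D arrays (-0.546 to -0.399), with a gap of 0.696 of the range. No member probe set had an array that far from its group.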

How the results depend on the processing

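Every member probe set that passed kept the sign of its difference under all alternatives that gave it a value, and over all 19 member probe sets 378 values moved by less than 1 SD between replicates and 11 by more. The range was 1.04 to 1.73 for TIMP3 (3), lowest when the RNA ratio was a covariate, and 2.76 to 3.15 for MMP13 (1), lowest with a pseudocount of 16. The alternatives were 2 filters, quantile normalization, median centring, a pseudocount of 16, a robust fit with a trend, weights per array, the replicate block, the covariate, each array left out, and the mean over a gene's probe sets. With the RNA ratio as a covariate, 4303 probe sets rose and 3624 fell (7171 and 9437 without it), and 54.3% of calls were raised against 43.2%. It also left 1 lowered member, 1 raised and 0 lowered other MMP genes, 0 lowered activators, 6 raised surface partners, and 3 raised and 1 lowered substrates. The other MMP genes had 1 lowered with the control-level filter, 1 raised and 1 lowered with the filter at 6, which both test fewer genes, and 2 lowered with quantile normalization. Lowered activators were 0 with median centring, 2 with array weights and 0 with the mean of probe sets, and 0 to 1 without single arrays. Lowered substrates were 1 with quantile normalization, 6 with array weights, 4 with the replicate block, 6 with the mean of probe sets, and 2 to 4 without single arrays. Lowered transcription factors were 1 with the replicate block and 1 with the mean of probe sets. The MMP13 and TIMP3 relation in 3D passed with median centring (adjusted exact permutation p = 0.0333), though r was 0.94 with and without it. The cause was not tested. Same-numbered arrays of both cultures had correlated deviations of 0.0008 to 0.36, and not every number exceeded 0.1, so the comparison was left without the block. A hint from the data is that 4 of 6 correlated best with their own number. The replicate block gave 7402 raised and 9728 lowered probe sets, and 2 lowered member probe sets in place of 3. Array signal over background limits MMP1, MMP7, MMP9 (2) and (3), and the 2D levels of MMP9 (1), MMP13 (1) and TIMP3 (2). These levels are at or near the limit and are not resolved here. MMP2, MMP14 and MMP15 lay above the control level, as did some markers of leukocytes, stroma and endothelium. That level alone does not settle whether they are expressed.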
